A study of Homo sapiens with 4 samples.

Results

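Cancer-testis antigen genes of the MAGE family, MAGEA1, MAGEA3, MAGEA4, MAGEA6, MAGEA8, MAGEA10, MAGEA11, MAGEA12, MAGEC1 and MAGEC2, were followed in untreated HEK293 cells. These genes were 10 of 17217 named genes on the array, and they were matched through the RefSeq accession of each probe to 11 targets and 33 probes. The 10 genes were selected on their low measured values on these same 4 arrays, so their levels are given as a description and no test was run on them.

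HEK293 is a line of human embryonic kidney cells transformed with adenovirus DNA that is widely used to express receptors. The study surveyed which messages this line carries, and the data were 4 single-colour NimbleGen arrays of 1 group, each from a separate plate of untreated cells grown in DMEM with fetal bovine serum and antibiotics and from its own RNA extraction. All 4 cultures were of 1 line, so the arrays measure the spread between cultures, with that of array handling, and not between donors.

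MAGE genes fall into type I, which lie in clusters on the X chromosome, and type II, which are used in many tissues. Type I genes are normally read in male germ cells and, in some cases, placenta, are kept silent elsewhere with dense DNA methylation at their promoters, and are switched on in many tumours, where peptides from their proteins are displayed on MHC class I and seen by T cells. The shared MAGE homology domain binds RING-type ubiquitin ligases and changes what these ligases act on.

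A level is the log2 of a gene's signal, taken from the mean of the 3 probes of its target. Following the study's rule, each array was given a baseline, the mean plus 2 SD of genes of semen and sperm, of which 10 of 11 were matched. The baseline stood at 9.47, 9.94, 10.69 and 10.32 log2 units on replicates 1, 2, 3 and 4. A distance is a level minus the baseline of its array, and a gene was called detected when its mean distance over the 4 arrays was above 0. By this rule 9074 of 17217 genes, 52.7%, were detected, and the median gene lay 0.26 above the baseline. The controls SPATA5 and SPATA13 lay at mean distances of -0.13 and -0.38, whereas the other 8 matched controls read at most 7.72 log2 units. SPATA5 and SPATA13 thus raised the baseline, and the 8 are called the low control genes after their values on these arrays. Replicates 1 and 2 shared 1 distribution of values, since their sorted probe values were equal within 0.01 log2 units at 99.97% of ranks, and so did replicates 3 and 4 (99.99%), whereas arrays of different pairs reached at most 1.25%. In RNA from a whole culture, fewer cells with a message and less message per cell cannot be told apart.

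None of the 10 MAGE genes was detected, against 52.7% of all genes, and their median distance was -3.04 log2 units. None lay above the baseline on all 4 arrays, where 45.0% of all genes did, and MAGEA11 and MAGEC1 were the 2 of 10 that lay above it on 1 or more arrays, where 60.2% of all genes did. Since low values chose the members, these shares describe the choice. The count of 0 detected genes became 1 without replicate 3, with MAGEA11 at a mean distance of 0.01. It became 2, MAGEA11 and MAGEC1, with a lower baseline of 1 SD, without SPATA5 and SPATA13, and with olfactory receptor genes as controls. Under these settings, in that order, 11075, 12747 and 12289 of all genes were detected. By array, 2 of the MAGE genes passed the baseline on replicate 2, 1 did so on replicate 4, and 0 on either of the remaining arrays.

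The order of the mean distances ran from MAGEA11 and MAGEC1 through MAGEA6, MAGEA3, MAGEA8, MAGEA10, MAGEC2, MAGEA12 and MAGEA1 to MAGEA4. Neighbours in this order lay further apart than the larger of their SDs at only 2 places, between MAGEC1 and MAGEA6, by 1.64, and between MAGEC2 and MAGEA12, by 0.45. The other neighbouring genes did not differ beyond their spread, and the gap of 0.45 was below the SD of the MAGEA12 level, 0.59. Probes differ in how well they bind, so this is an order of signals and not of message amounts.

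**Figure D1:**
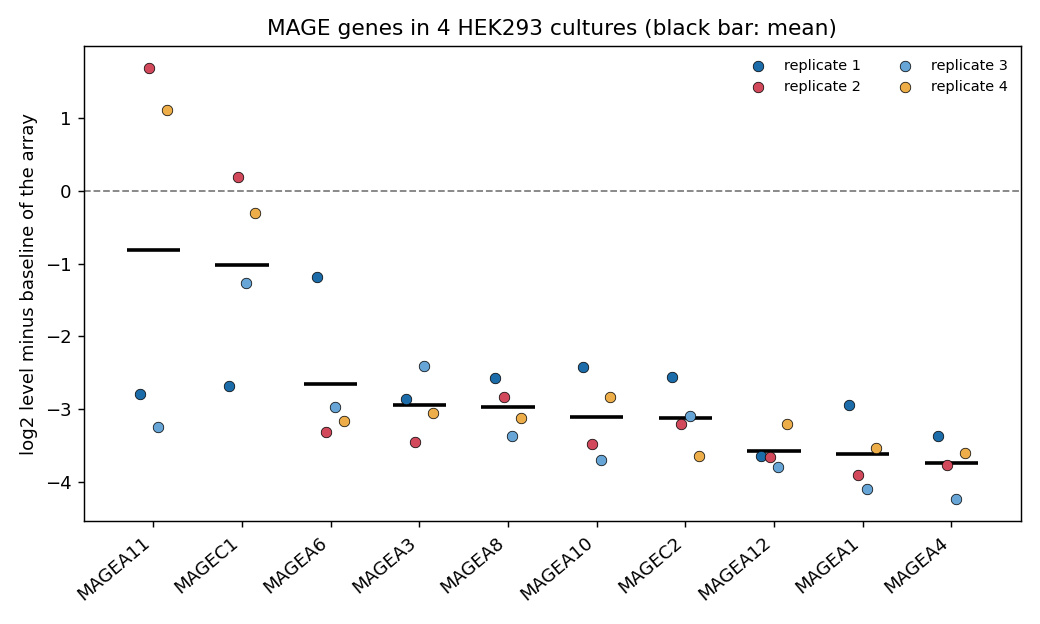
Distance to the baseline (log2 units, vertical axis) of the 10 MAGE genes, 1 point for each of the 4 arrays and a black bar for the mean; the dashed line is the baseline. MAGEA11 on replicates 2 and 4 and MAGEC1 on replicate 2 are the points above the line, and the other 8 genes lie at -1.18 or lower on every array.

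MAGEA11, which encodes a transcriptional coregulator, differed more between arrays than any other MAGE gene here. In the order of the replicates its level read 6.68, 11.64, 7.44 and 11.44 log2 units. The distances were -2.79, 1.70, -3.25 and 1.12, with a mean of -0.81 ± 2.58 (SD, n = 4). Replicates 2 and 4 were high and replicates 1 and 3 low, with no overlap, and the split crossed the 2 pairs of arrays that shared a distribution of values. The mean therefore describes none of the 4 arrays.

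Each of the 3 probes of MAGEA11 showed the same split. The first probe read 6.02, 11.27, 7.82 and 11.02 on replicates 1 to 4. The second read 7.50, 12.48, 6.58 and 12.37. The third read 5.94, 10.45, 7.64 and 9.94. On replicates 2 and 4 all probes but the third, on replicate 4, lay above the baseline, and on replicates 1 and 3 none did.

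Within each pair of like-scaled arrays the difference of MAGEA11 was among the largest on the array. Replicate 2 exceeded replicate 1 by 4.96 log2 units, where 3 genes had a larger rise and the 0.01 and 0.99 quantiles over all genes were -2.01 and 2.44. Replicate 4 exceeded replicate 3 by 4.00 log2 units, where 1 gene had a larger rise and the same quantiles were -1.86 and 1.78. The gap between the lower of its 2 high levels and the higher of its 2 low levels was 4.00 log2 units. A gap of at least 2 log2 units with replicates 2 and 4 higher was found in 36 of 17217 genes, 0.209%, and the gap of MAGEA11 was the largest of these. This gap was examined after the values of MAGEA11 had been seen. Counting any split of the 4 arrays into 2 and 2, 90 genes had a gap of that size, 50 of them with replicates 1 and 3 higher, and 7 genes had a larger gap than MAGEA11. Which difference between the cultures or in the handling of the arrays went with the split was not tested. Each culture had its own array, so the cultures and the handling cannot be told apart.

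Among genes with replicates 2 and 4 higher, the next largest gaps after MAGEA11 were 3.53 in BCHE, 3.26 in PRAME and 3.06 log2 units in KLHL41. SIAE at 3.06 and ROBO2 at 3.05 log2 units followed. These genes were named after their values had been seen, and likeness of patterns over the arrays was not computed. PRAME, an autosomal cancer-testis antigen, read 9.41, 13.05, 9.62 and 12.88 on replicates 1 to 4. BCHE, which encodes butyrylcholinesterase, read 6.14, 11.04, 7.28 and 10.81. In both, as in MAGEA11, replicates 2 and 4 were high and did not overlap replicates 1 and 3.

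**Figure D2:**
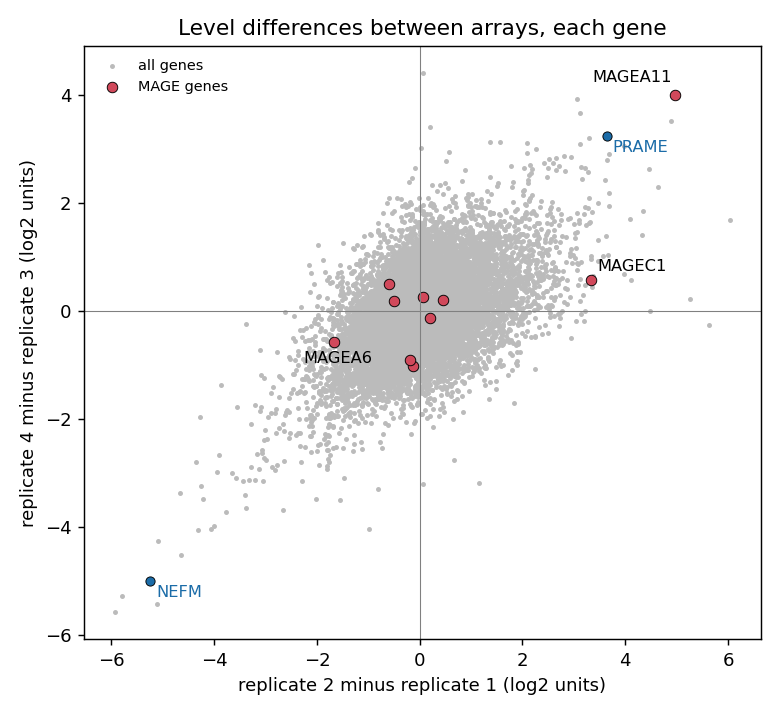
Difference in level between replicates 2 and 1 (horizontal axis, log2 units) against that between replicates 4 and 3 (vertical axis, log2 units), 1 grey point a gene for 17217 genes, with the 10 MAGE genes in red and PRAME and NEFM in blue. MAGEA11, at 4.96 and 4.00, lies at the far upper right, PRAME near it at 3.64 and 3.26, and NEFM, a neurofilament gene, at the opposite end at -5.25 and -5.01.

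MAGEC1, whose protein carries a long repeat region before its MAGE homology domain, was the other gene that reached the baseline. Its distances on replicates 1 to 4 were -2.68, 0.19, -1.26 and -0.31, with a mean of -1.02 ± 1.26 (SD, n = 4). Replicates 2 and 4 were again the higher arrays. Replicate 2 exceeded replicate 1 by 3.34 log2 units, where 29 genes had a larger rise, but replicate 4 exceeded replicate 3 by only 0.59, where 2740 genes did.

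A single probe carried the MAGEC1 signal. Its first probe read 7.74, 11.66, 10.73 and 11.48 on replicates 1 to 4, above the baseline on replicates 2, 3 and 4. Its second probe read 6.23, 5.78, 7.85 and 7.38, and the third read 5.43, 6.09, 7.13 and 6.20, all below the baseline. Taken alone, the first probe put MAGEC1 at a mean distance of 0.30, the second at -3.29 and the third at -3.89. Which of the 3 probes reported the MAGEC1 message was not tested. Over all 10 genes, 4 of 33 probes lay above the baseline on 1 or more arrays, and these were the 3 probes of MAGEA11 and the first probe of MAGEC1.

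**Figure D3:**
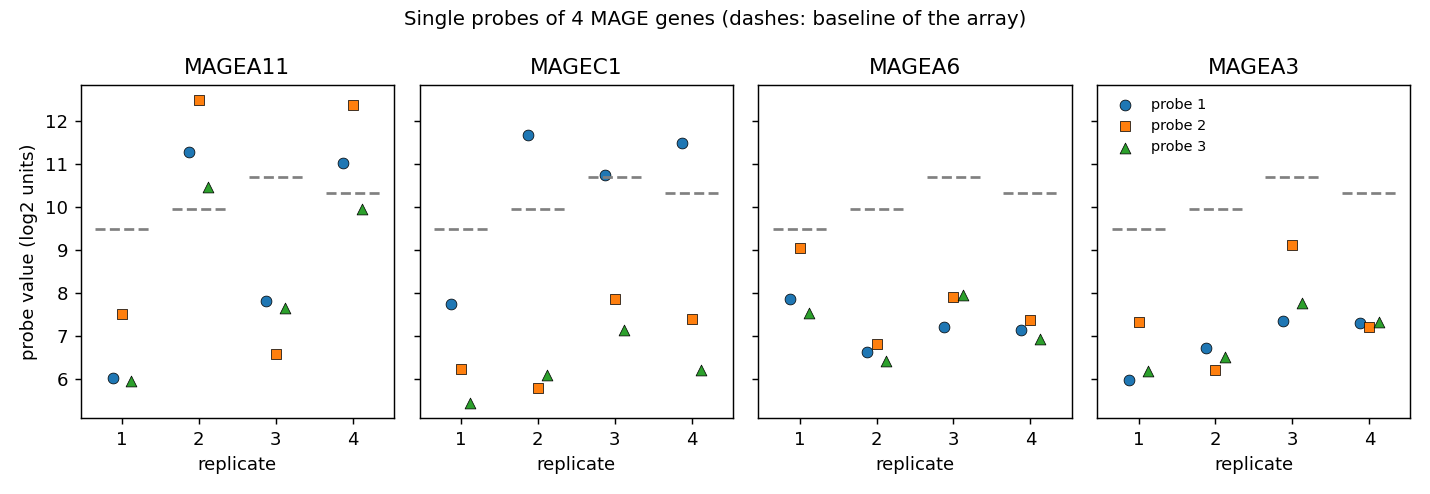
Values of the 3 single probes (log2 units, vertical axis) of MAGEA11, MAGEC1, MAGEA6 and MAGEA3 on the 4 arrays (horizontal axis), with a grey dash for the baseline of each array. The 3 MAGEA11 probes rise together on replicates 2 and 4, whereas 1 MAGEC1 probe, at 7.74 to 11.66, stands above the other probes of its gene on every array.

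The other 8 genes stayed low on every array. Their levels lay between 5.83 and 8.29 log2 units, and of 32 values 28 lay within the range of the 8 low semen and sperm genes on the same array, 2 below it and 2 above it. For 6 of the 8 all values lay within or below that range. The SDs of their distances ran from 0.25 to 1.00, around the median of 0.63 over all genes, and none of the 8 differed between the paired arrays as MAGEA11 did.

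MAGEA3 and MAGEA6 encode nearly identical proteins that act with the ubiquitin ligase TRIM28. MAGEA3 had distances of -2.86, -3.45, -2.41 and -3.05 and a mean of -2.94 ± 0.43 (SD, n = 4). MAGEA6 had distances of -1.18, -3.32, -2.97 and -3.17 and a mean of -2.66 ± 1.00 (SD, n = 4). By distance, replicate 1 of MAGEA6 stood apart from its other 3 arrays, and the ranges of both genes overlapped. By level it did not, with 8.29 log2 units on replicate 1 and 7.72 on replicate 3, where the baseline was higher. Probe sequences were not used here, so binding of near-identical family members to each other's probes was not examined.

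MAGEA1, the first MAGE antigen found through T cells, and MAGEA4, a target of engineered T cells that also binds the DNA repair ligase RAD18, were the lowest. MAGEA1 had distances of -2.94, -3.90, -4.10 and -3.53 (mean -3.62 ± 0.51, SD, n = 4). MAGEA4 had distances of -3.37, -3.77, -4.24 and -3.61 (mean -3.75 ± 0.37, SD, n = 4). Both lay no higher than the highest of the 8 low control genes on all 4 arrays.

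MAGEA12, MAGEA8 and MAGEA10 are further X-linked antigens of the MAGE-A group. MAGEA12 read -3.64, -3.66, -3.79 and -3.21 relative to the baseline, a mean of -3.58 ± 0.25 (SD, n = 4) and the smallest spread of distances of the 10. Its level had an SD of 0.59, and by level MAGEA8 had the smallest SD, 0.18. MAGEA8 read -2.57, -2.83, -3.37 and -3.13, a mean of -2.97 ± 0.35 (SD, n = 4). MAGEA10, represented by 2 targets, read -2.43, -3.48, -3.70 and -2.84, a mean of -3.11 ± 0.59 (SD, n = 4). The ranges of these 3 genes overlapped. MAGEC2, a partner of TRIM28 located beside MAGEC1, read -2.55, -3.20, -3.10 and -3.64, a mean of -3.12 ± 0.45 (SD, n = 4). Unlike in MAGEC1, replicates 2 and 4 were the lower arrays of MAGEC2 within this narrow range.

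Promoter sequences were read from RefSeq on build GRCh38.p14, as windows of 250 bases before to 50 bases after an annotated start. In all, 13 windows matched 8 of the genes, 5 of them for MAGEA4 and 2 overlapping windows for MAGEA12, and none was used for MAGEA1 and MAGEA10. Shown here are the genes with signal on some arrays, MAGEA11 and MAGEC1, with capitals on each GC box (GGGCGG or CCGCCC, the letters bound by SP1). A gene that stayed low, MAGEA3, is shown with capitals on the ETS motif searched (CCGGAA or TTCCGG, a form read by ETS-family factors). All 3 windows lie on the plus strand, MAGEA11 at chrX:149711810-149712109 at an annotated start inside the gene's span, MAGEC1 at chrX:141903644-141903943 and MAGEA3 at chrX:152698544-152698843.
MAGEA11: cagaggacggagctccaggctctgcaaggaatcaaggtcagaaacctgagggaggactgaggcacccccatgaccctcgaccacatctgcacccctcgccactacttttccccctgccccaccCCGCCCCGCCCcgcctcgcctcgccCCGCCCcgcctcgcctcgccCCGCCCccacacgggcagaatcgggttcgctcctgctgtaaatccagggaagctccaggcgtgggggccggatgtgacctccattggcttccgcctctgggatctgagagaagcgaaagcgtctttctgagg
MAGEC1: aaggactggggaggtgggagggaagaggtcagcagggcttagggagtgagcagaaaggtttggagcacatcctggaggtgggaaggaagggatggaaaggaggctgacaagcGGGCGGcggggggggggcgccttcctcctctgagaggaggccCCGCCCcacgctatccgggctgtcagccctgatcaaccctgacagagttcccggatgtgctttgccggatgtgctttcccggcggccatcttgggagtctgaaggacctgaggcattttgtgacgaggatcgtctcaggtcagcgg
MAGEA3: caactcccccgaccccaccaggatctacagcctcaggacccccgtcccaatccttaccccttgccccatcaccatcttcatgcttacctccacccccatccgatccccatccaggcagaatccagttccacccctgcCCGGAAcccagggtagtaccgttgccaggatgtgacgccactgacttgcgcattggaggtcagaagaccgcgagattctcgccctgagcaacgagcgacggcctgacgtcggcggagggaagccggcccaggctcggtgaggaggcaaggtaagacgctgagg
The MAGEA3 window and that of MAGEA6, at chrX:152769640-152769939 on the minus strand, differed at 0 of 300 bases.

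CpG pairs, where DNA methylation is placed, numbered 9 to 21 per window in the MAGE genes with a median of 14, which was also the median over 35097 promoters. MAGEA11 had the most, 21, a number reached or passed by 39.5% of all promoters. MAGEA3 and MAGEA6, which both stayed below the baseline, had 19 each. The GC content ran from 60.7% to 66.3%, highest in MAGEA11, against a median of 58.7% over all promoters.

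GC boxes, searched on both strands with overlaps counted, occurred in 8 windows of 5 of these genes, and 44.9% of all promoters held at least 1. MAGEA11 held 4 of them, the first 2 overlapping by 1 base, and 9.06% of all promoters held as many or more. The ETS motif searched was found only in the windows of MAGEA3 and MAGEA6, against 17.3% of all promoters. Other forms of ETS site were not searched, so the remaining windows cannot be said to lack one. Whether the motif counted next forms part of an ETS site was not tested. After the windows had been read, a further motif, GGATGTG or CACATCC, was counted on both strands, and it occurred in 13 of 13 windows and so in 8 of 8 genes, against 4.29% of all promoters. It began at positions from -117 to -6 relative to the start in every gene but MAGEC1, which held it 3 times. Among the other type I genes it was in 7 of 14 with a promoter, and in 0 of 11 type II genes. These genes are copies of one another, and the paired windows of MAGEA12 share a stretch, so the matches are not independent, and a match describes letters and not a bound site. The motif was present alike in MAGEA11 and MAGEC1 and in the 6 genes that stayed low, and the promoters were not tested against the levels.

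**Figure D4:**
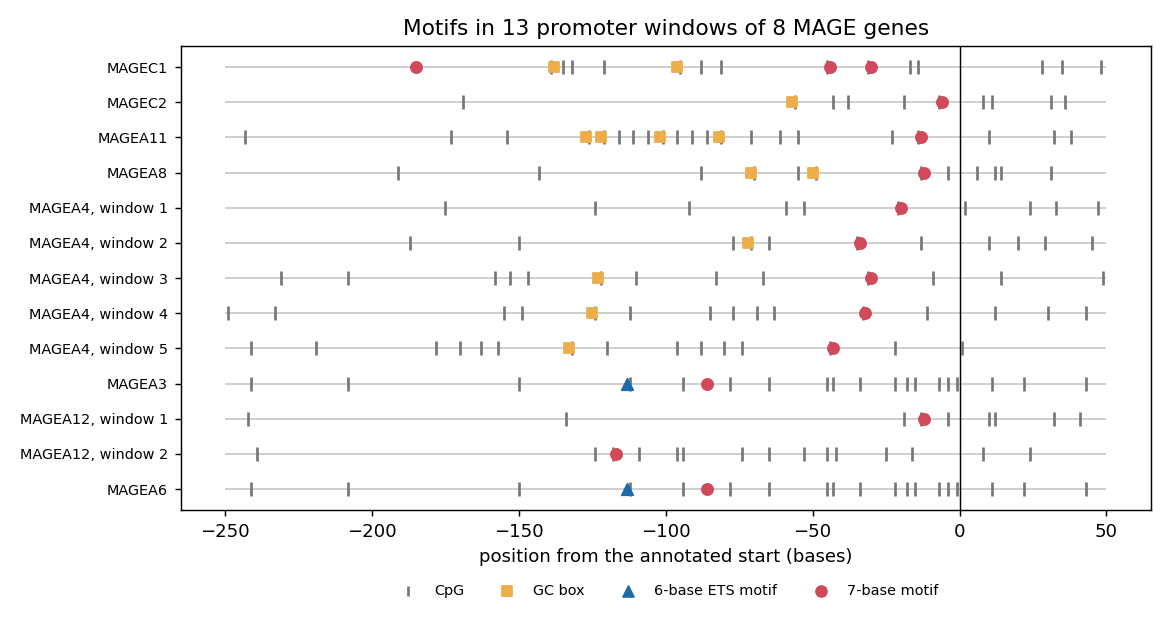
Positions of motifs in 13 promoter windows of 8 MAGE genes, in bases from the annotated start (vertical line). Grey ticks are CpG pairs, squares GC boxes, triangles the 6-base ETS motif searched, and circles the 7-base motif counted after reading the windows. MAGEA11 holds 4 GC boxes close together, and a circle appears in every window.

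Of 15 genes beside the MAGE genes on the X chromosome that were not themselves among the 10, 3 were detected, CETN2, GABRE and TMEM185A, against 52.7% of all genes. Of these neighbours 5 were further type I MAGE or X-linked cancer-testis genes (CSAG1, MAGEA2, MAGEA9, MAGEC3 and SPANXN4), none of them detected, and of the remaining 10 genes 3 were detected. TMEM185A, the named gene before MAGEA11, lay at 1.47 ± 0.44 (SD, n = 4) and passed the baseline on each of the 4 arrays. HSFX1, the gene after MAGEA11, had distances of -0.39, -1.67, -1.35 and -2.11 and did not rise on replicates 2 and 4. GABRE, a GABA receptor subunit gene between MAGEA4 and MAGEA10, read 2.15, -1.39, 1.48 and -0.78. GABRQ, a further GABA receptor subunit gene before MAGEA3, read 0.85, -3.02, 0.51 and -2.52. Both were higher on replicates 1 and 3, the arrays on which MAGEA11 was low, and the call of GABRE was lost without replicate 1 (-0.23) or replicate 3 (-0.0064).

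The rest of the MAGE family is given by type. None of 10 other type I genes on the array was detected or passed the baseline even once, with mean distances from -3.79 (MAGEB18) to -2.82 (MAGEB2), and limma called 0 of them above the baseline. Of 11 type II genes 6 were detected, 5 of them on every array. This share, 54.5%, was near the 52.7% of all genes. The 6 detected genes lay at varied distances. They were led by MAGED1, which binds the neurotrophin receptor NGFR, at 4.02 ± 0.74 (SD, n = 4), and by MAGEF1, at 3.38 ± 0.79. MAGED2, which acts in salt transport of the fetal kidney, stood at 2.20 ± 0.54, and NSMCE3, a subunit of the SMC5/6 genome maintenance complex, at 2.09 ± 0.81. NDN and MAGEL2, imprinted genes of the Prader-Willi region, lay at -3.52 and -3.61. The other undetected type II genes, MAGEE1, MAGEE2 and MAGEH1, lay at -3.12, -2.70 and -0.66. With limma, one-sided, on the distances of all genes, 7904 of 17217 genes, 45.9%, had an adjusted p under 0.05. Among them were 5 of 11 type II genes, and since the fitted error was the same for all genes, a call followed the mean distance alone. With the 2 pairs of arrays that share a distribution as a random block, 7630 genes were called, again with 5 of the type II genes.

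Of 51 other cancer-testis antigens of the X chromosome on the array 1 was detected, where 52.7% of all genes were. It was SSX1, a transcriptional corepressor gene, at 2.39 ± 0.60 (SD, n = 4). In this list limma called 1, where it called 45.9% of all genes. The call of SSX1 rested on 1 of its 3 probes, and with the mean of log2 probe values SSX1 lay at -0.48. The count of 1 depended on the baseline, and was 5 with 1 SD, 15 without the controls SPATA5 and SPATA13 and 12 with olfactory receptor genes as controls, while the genes detected over all 17217 numbered 11075, 12747 and 12289 under the same settings. SSX2, SSX4, SSX4B, SSX5 and SPANXB1 lay above the baseline on replicate 2 and on no other array, by 0.22 to 1.10, and these 5 were named after their values had been seen. Of 28 autosomal cancer-testis genes 7 were detected, 25% beside 52.7% of all genes. These included genes of dividing cells such as CEP55 and TTK. PRAME was also detected, at 1.14 ± 2.02 (SD, n = 4), and its mean, like that of MAGEA11, joined 2 high and 2 low arrays. The count of 7 became 11 with 1 SD and 14 with either of the other control sets. Under these settings 11075, 12747 and 12289 of all genes were detected.

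**Figure D5:**
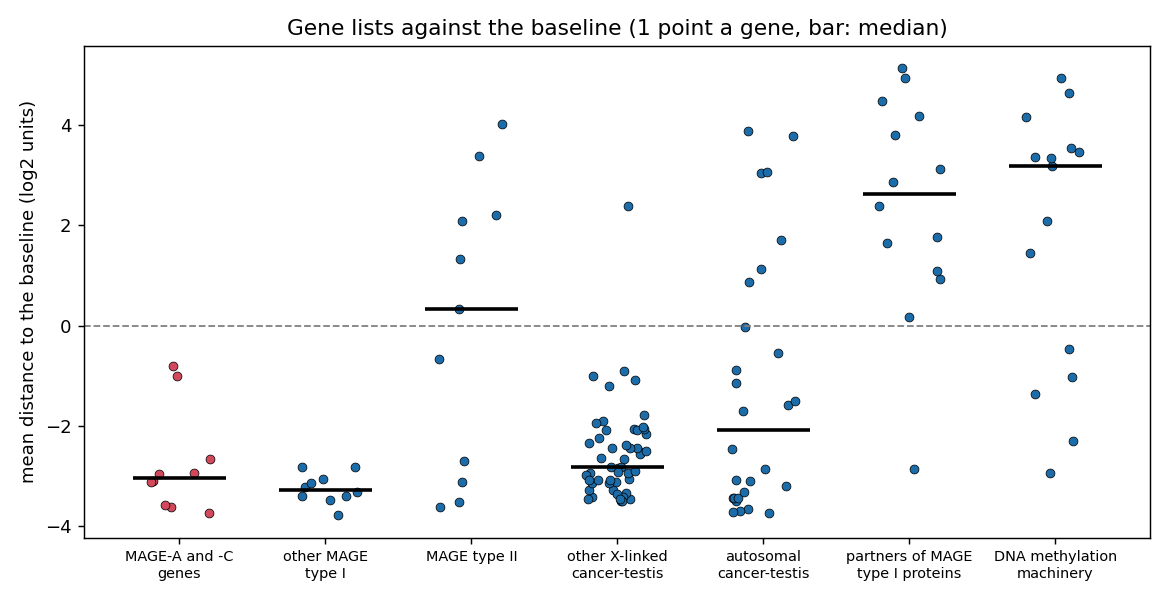
Mean distance to the baseline over 4 arrays (log2 units, vertical axis), 1 point a gene, for 7 gene lists, with a bar at the median of each and the baseline dashed. The 10 MAGE-A and MAGE-C genes (red) and the other type I genes lie below the line, type II genes on both sides, and nearly all partners of MAGE type I proteins above it.

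Genes for proteins that type I MAGE proteins bind or act on were detected in 13 of 14 cases, where 52.7% of all genes were, and limma called 12. TRIM28, the ligase that MAGEA3, MAGEA6 and MAGEC2 bind, stood at 5.13 ± 0.56 (SD, n = 4). PCF11, a factor of messenger RNA 3' end formation, lay at 2.86 ± 0.86, and PRKAA1, a catalytic subunit of the energy sensor AMPK, at 1.77 ± 0.67. RAD18, the partner of MAGEA4, lay at 0.93 ± 0.86. TRIM31, a ligase bound by MAGEA1, was the undetected gene at -2.87. Of 10 genes for proteins that type II MAGE proteins bind, 9 were detected.

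DNA methylation and silencing genes were detected in 10 of 15 cases, 66.7%, beside 52.7% of all genes, and limma called 10, beside 45.9% of all genes. With so few genes these shares are not read as a difference. DNMT1, the maintenance methyltransferase, stood at 3.55 ± 0.48 (SD, n = 4), its cofactor UHRF1 at 3.47 ± 0.65, and the de novo enzymes DNMT3B at 1.44 ± 0.62 and DNMT3A at -1.03 ± 0.53. Of 7 factors known to bind MAGE promoters 6 were detected, with SP1 at 3.62 ± 0.48 and ETS1 at 1.05 ± 0.63. The seventh, CTCFL, a germ cell paralog of CTCF that is itself a cancer-testis gene, lay at -3.67 ± 0.25. Of 11 genes of MHC class I display 8 were detected, 72.7% beside the same 52.7%, with B2M, the shared light chain, at 4.05 ± 0.96 and the peptide transporter gene TAP1 at 3.13 ± 0.54, while the immunoproteasome genes PSMB9 and PSMB8 lay at -1.45 and -2.88. Methylation itself was not measured on these arrays.

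Markers of the cell types in which MAGE genes are normally read were mostly below the baseline, where 52.7% of all genes were detected. Of 12 germ cell markers 1 was detected, SYCP3, a component of the meiotic chromosome axis, at 1.86 ± 0.89 (SD, n = 4) and through 1 of its 3 probes (-0.23 with the mean of log2 probe values), while the germ cell defining genes DDX4 and DAZL lay at -3.57 and -3.84. Of 8 placenta markers 1 was detected, ERVW-1, at 0.90 ± 0.72. Of 11 kidney markers 2 were detected by the mean but none on all 4 arrays, WT1 at 0.81 ± 1.03 and SIX2 at 0.04 ± 0.45 (below 0 without replicate 1, at -0.088, or replicate 2, at -0.025), with 1 called by limma and 0 once the pairs of arrays were a random block, and mature kidney genes such as UMOD and AQP2 lay at -2.41 and -3.22. Without the controls SPATA5 and SPATA13, 6 placenta and 6 kidney markers were detected, where 12747 of 17217 genes were. With olfactory receptor genes as controls the same numbers of markers were detected, where 12289 of all genes were. Of 8 neuronal markers 5 were detected, 62.5% beside 52.7% of all genes, led by NEFL at 4.01 ± 0.56. With so few genes this share is not read as a difference. The neuronal markers ELAVL4, STMN2 and DCX lay at -2.91, -3.12 and -3.06. The neuronal markers SYT1 and NEFM also split by the arrays on which MAGEA11 split, SYT1 with replicates 2 and 4 higher by a gap of 2.92 log2 units and NEFM with replicates 1 and 3 higher by a gap of 4.77. Their part in the MAGEA11 difference was not tested.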

How the data were processed

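The 4 samples were single-colour NimbleGen expression arrays of RNA from separate untreated HEK293 cultures. The deposited values are log2 probe signals that the authors obtained from scans with GenePix and NimbleScan. The submitters' processing notes name RMA, which summarises and normalizes probes, and the values held 71998 probes of 24000 targets, each with 3 probes apart from a few. Background correction and normalization by the authors fix the scale, and the sharing of a distribution within 2 pairs of arrays means that levels compare best within a pair. No array column was left unmapped (0).

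Accessions were matched to symbols through RefSeq for 19125 targets and 17217 genes. Probe values were put on a linear scale, averaged per target and logged, and targets were averaged per gene. Baselines used the mean plus 2 SD of 10 of 11 control genes, 1 of which, PYY2, was not matched. Distances were tested above 0 with limma 3.58 in R 4.3, one-sided with Benjamini-Hochberg adjustment over all 17217 genes, after a check on simulated data, and again with the pairs of arrays that share a distribution as a term or a random block. The fitted standard error was 0.35 log2 units for every gene, so a call followed the mean distance alone and not a gene's own spread. PRAME, at 1.14 ± 2.02 (SD, n = 4), was called although it lay above the baseline on only 2 arrays. The simulated data gave every gene the same spread, so that check could not show this. Tables were made with pandas 2.3 in Python 3.11.

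The members and lists were chosen with earlier results of these data known. Named genes were the 10 members, every gene of lists of 17 or fewer, the detected genes of longer lists up to the 8 highest, and the neighbours of each member; others are said to be chosen after their values were seen, and a few list genes are not reported here. Alternatives covered the baseline, the controls, the probe and gene summaries, the normalization and the arrays used. A comparison of the proteins of the members was planned and not run, since no protein table was used here. The precision is limited by the number of arrays, 4.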

Additional observations from a re-analysis of the deposited data

Results flagged for a closer look

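Among 120 sets of 4 values, the distances and the levels of 60 named genes, 4 held an array far from the other 3, judged by Dixon's gap over range at its critical value. Chance alone gives about 1 such set in 20. MAGEA6 on replicate 1 stood apart with a distance of -1.18, while its other arrays lay from -3.32 to -2.97, and its levels did not stand apart in the same way. TAP1 on replicate 1 had a distance of 3.93, above the other arrays. MAGEB2 on replicate 3 had a distance of -4.06, below them. By level, PRKAA1 on replicate 3 read 11.6 log2 units, below the other arrays. What set these arrays apart was not tested.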

How the results depend on the processing

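The low values of 8 MAGE genes held in all 16 alternative settings tried, with mean distances from -5.06 (MAGEA4) to -0.33 (MAGEA6). MAGEA11 ranged from -3.02 to 1.52 and was above the baseline in 5 of these, and MAGEC1 ranged from -3.08 to 1.31 and was above it in 3. The number of MAGE genes detected was 2 with a baseline of 1 SD, without the controls SPATA5 and SPATA13, and with olfactory receptor genes as controls, 1 with replicates 2 and 4 alone, and from 0 to 1 when 1 replicate was left out (1 without replicate 3, where MAGEA11 lay at 0.01). It was 1 with probe 1 alone or replicate 4 alone and 2 with replicate 2 alone, settings chosen after seeing the data. Over all 17217 genes, 11075 were detected with 1 SD, 12747 without SPATA5 and SPATA13 and 12289 with olfactory receptor genes. Detected autosomal cancer-testis genes numbered 11 with 1 SD and 14 under both other control sets. Detected X-linked ones numbered 5 with 1 SD, 15 without SPATA5 and SPATA13, 12 with olfactory receptor genes, 2 with replicates 2 and 4 alone and 0 with the mean or the median of log2 probe values. With 3 SD the mean distance fell below the baseline for ERVW-1 (-0.41), ETS1 (-0.27), GABRE (-0.95), PRAME (-0.18), RAD18 (-0.39), SIX2 (-1.28), SPA17 (-0.46), TRO (-0.99) and WT1 (-0.50). With the mean of log2 probe values it did so for SIX2 (-0.13), SPA17 (-0.63), SSX1 (-0.48) and SYCP3 (-0.23), and with the median for SIX2 (-0.60), SPA17 (-1.81), SSX1 (-2.45), SYCP3 (-1.87) and WT1 (-0.13). Replicates 2 and 4 alone gave GABRE -1.09, replicates 1 and 3 alone gave PRAME -0.56 and SIX2 -0.10, replicates 3 and 4 alone gave SIX2 -0.24, and the highest target of a gene gave SIX2 -0.013. When 1 replicate was left out, GABRE ran from -0.23 to 0.95 and SIX2 from -0.088 to 0.25, below 0 without replicate 1 in both, also without replicate 3 for GABRE and without replicate 2 for SIX2. The causes were not tested, except that a higher baseline lowers every distance by construction. In a short promoter window of 100 bases before the start, the median number of CpG pairs per 100 bases was 6.0 in the MAGE genes and 5.33 over all promoters, against 4.67 in both for the whole window. No paired analysis was possible between groups because the 4 arrays form 1 group. The pairs of arrays that share a distribution of values, entered in limma after seeing the data, gave 8058 calls over all genes as a term and 7630 as a random block (correlation 0.34), against 7904 without them; the random block left 0 of 1 kidney calls and 6 of 7 autosomal cancer-testis calls.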
